A study of Mus musculus with 8 samples.

Results

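Aldehyde dehydrogenases are enzymes that use NAD+ or NADP+ to oxidise aldehydes to carboxylic acids. Their substrates include retinal, the precursor of retinoic acid, the acetaldehyde made from ethanol, reactive aldehydes from oxidised lipids, long-chain fatty aldehydes, and intermediates of amino acid, choline and carnitine metabolism. ALDH activity is widely used to sort stem-like cells from epithelial tumours, including lung cancers. The 10 genes described here, Aldh1a1, Aldh1a3, Aldh1a7, Aldh1b1, Aldh2, Aldh3a1, Aldh3a2, Aldh3b1, Aldh7a1 and Aldh9a1, were taken by their symbols from a deposited table of 56884 genes. Each symbol matched 1 row, and 11 further genes of the family in that table serve as comparison.

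The mRNA of Lacun3 cells, which are murine and come from lung adenocarcinoma, was sequenced in bulk from 4 cultures of the parental cells (STK11 WT) and 4 of cells whose Stk11 gene was knocked out by CRISPR (STK11 KO). The product of Stk11 is LKB1, a kinase upstream of AMPK that acts as a tumour suppressor. Both lines grew untreated in DMEM with 10% fetal bovine serum and were harvested in logarithmic growth, and the replicates are described as independent biological ones. The sources used here do not say whether the knockout line is a clone or a pool, or which guide made it. The series was designed to find changes that loss of Stk11 causes inside the tumour cells, away from their surroundings. The 10 genes were selected on their counts in these same 8 libraries, with the contrast between the lines known, so their differences between the lines are given as a description. No p-value is given for them, and their position against the threshold used for all genes is a count only and supports nothing.

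Library sizes were 18837263 to 21101904 counts in the parental and 21441601 to 25715008 in the knockout group, and 1 count was worth 0.0388 to 0.0515 CPM (a gene's count relative to the TMM-scaled library size). Library size was higher in every knockout library (exact permutation test, two-sided p = 0.0286, the smallest possible with 4 against 4). Stk11 mRNA stood at 64.7 to 68.4 CPM in the parental and at 33.5 to 35.4 CPM in the knockout libraries, so a large part of it remained. Pairs of libraries of one line differed more when knockout replicate 3 was one of them, with a chi-square per degree of freedom of at least 14.1 against at most 9.51 for the other pairs. Of 8 epithelial markers, 6 were well counted, and the list had a summed level of 9309.6 to 9795 CPM in parental and 8009.6 to 8961 CPM in knockout libraries. The sum hides differences among single markers. Of these 6, 3 fell, 1 rose and 2 passed in neither direction (edgeR adjusted p under 0.05). Among all tested genes 33.6% fell and 34.4% rose, so these counts are read no further. Nkx2-1, the lung lineage factor, had 1 count in all 8 libraries together, and the alveolar type 2 markers Sftpc and Sftpa1 had 0; the 9 alveolar type 2 markers summed to 103 to 117 and 104 to 129 CPM, nearly all of it from Abca3. The 5 club cell markers, which define the airway cells in which Aldh1a1 is abundant, summed to at most 0.0515 CPM, with Scgb3a2, Cyp2f2 and Bpifa1 at 0.

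Aldh1a1 and Aldh1a7 are near-copies and neighbours, so their sequences are shown first. In GRCm39, the build of the count table, Aldh1a1 (ENSMUSG00000053279.9) spans 20470079 to 20620829 on the plus strand of chromosome 19, and Aldh1a7 (ENSMUSG00000024747.4) on the minus strand from 20670317 to 20704926. They point towards each other, 49487 bp apart, with 0 annotated genes between them. Their coding sequences, both 1503 bases without the stop codon, were identical at 91.6% of aligned bases, whereas no other pair among the 10 genes exceeded 70.2% (Aldh1b1 with Aldh2). The first 51 coding bases, a stretch as long as 1 sequencing read, are shown to let the difference be seen, from GENCODE M21 on GRCm38, chromosome 19, at chr19:20602012-20602062 (plus strand, Aldh1a1-201) and chr19:20727462-20727512 (minus strand, Aldh1a7-201). Capitals mark the 3 bases that differ.
Aldh1a1: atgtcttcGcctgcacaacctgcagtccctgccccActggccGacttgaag
Aldh1a7: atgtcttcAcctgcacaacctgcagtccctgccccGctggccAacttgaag
Of all 51-base words in their annotated transcripts, 2.96% of those of Aldh1a1 and 7.24% of those of Aldh1a7 occurred in the other gene. Most reads of this length can therefore be placed, but the sources used here do not say how reads with several matches were treated, and the split of counts between both genes is uncertain to that extent.

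The likeness extends upstream of both genes. The mRNA of both was lower in the knockout (below), and a link between this and the likeness was not tested. The 100 bases before the RefSeq start sites (GRCm38.p6) are shown because they were identical at 94 of 100 positions, with a longest shared run of 65 bases that occurred before no other gene among 32851 RefSeq promoters. For Aldh1a1 this is the downstream one of 2 listed starts, at chr19:20601868-20601967 on the plus strand, and for Aldh1a7 it is chr19:20727557-20727656 on the minus strand. Capitals mark a CCAAT box, whose first base lies 72 bases before the start in both.
Aldh1a1: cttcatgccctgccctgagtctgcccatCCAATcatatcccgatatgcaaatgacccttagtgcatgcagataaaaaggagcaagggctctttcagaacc
Aldh1a7: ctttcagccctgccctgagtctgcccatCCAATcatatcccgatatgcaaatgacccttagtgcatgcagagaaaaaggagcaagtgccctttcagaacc
The motif CCAAT, searched on both strands of the 250 bases before the start, was present in 33.8% of all promoters, so its presence sets neither gene apart. Entries were found for 6 of the 10 genes. GCGTG, the core of the site bound by the aryl hydrocarbon receptor, was found 2 times before Aldh9a1 and 1 time before Aldh3a2 (28.2% of all promoters), and TGACG, a core of the cAMP response element, 1 time before Aldh3b1 (17.8%). TGACNNNGC, the core of the antioxidant response element, was found 1 time before Aldh9a1 (10.2%), and TATAAA 1 time before Aldh1a7 (12.4%). None of these strings overlapped another in the 6 genes' windows. A match describes letters only, and no binding was measured. The bases before Aldh1a3, Aldh2, Aldh3a1 and Aldh7a1 were not searched, so nothing is said here of motifs at these genes.

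The members differed between the lines in both directions and by very different amounts. Aldh1a7, Aldh3a1 and Aldh1a1 were lower in the knockout by more than 6-fold, Aldh2, Aldh3b1 and Aldh3a2 by 1.94-fold or less, and Aldh7a1 and Aldh9a1 were higher by 1.38-fold and 1.39-fold. Aldh1a3 and Aldh1b1 were barely expressed in either line. Of the 10 genes, 9 had enough counts to enter the fit across all genes, and 8 of these passed the threshold of the edgeR quasi-likelihood test (adjusted p under 0.05), 2 higher and 6 lower in the knockout, 3 of these at least 2-fold lower. Among all 13707 tested genes 68% passed, 34.4% higher and 33.6% lower, and 16.4% passed with at least a 2-fold difference, 7.02% higher and 9.41% lower, so the count of members is read no further. The median log2 fold change of the 9 was -0.58, beside 0.013 for all tested genes. The 9, the 6 lower and the 3 at least 2-fold lower all include Aldh1a7, which entered the fit through the parental libraries only, so these counts and the median are partly set by the filter. Both lines' values stood fully apart for 8 of the 9 members, 2 higher and 6 lower in the knockout, and for 60.6% of all tested genes, 30.5% higher and 30.2% lower.

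**Figure D1:**
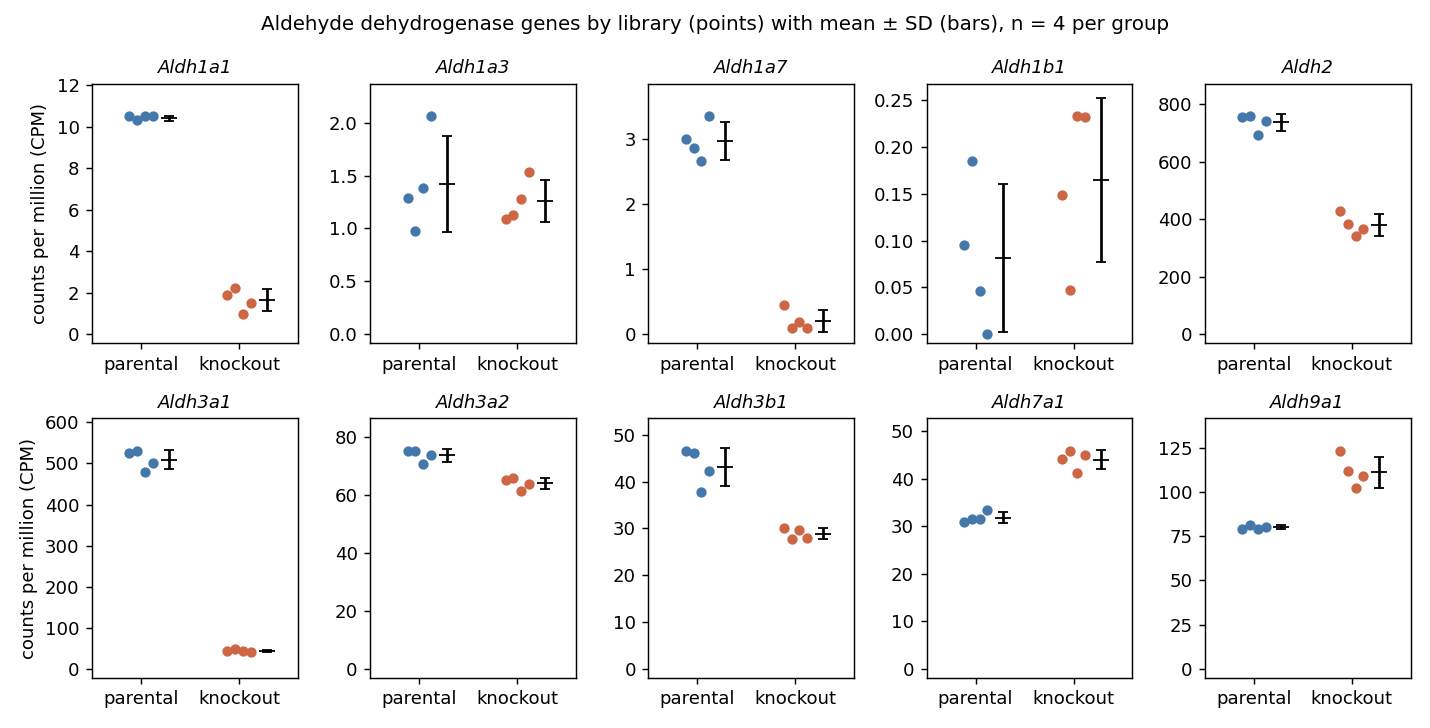
Level of each of the 10 genes in CPM (vertical axes, linear from 0, scaled per gene) in 4 parental (blue) and 4 knockout (red) libraries; points are libraries, in the order of replicates 1 to 4, and black bars are mean ± SD. Groups do not overlap for Aldh1a1, Aldh1a7, Aldh2, Aldh3a1, Aldh3a2 and Aldh3b1 (lower in knockout) or Aldh7a1 and Aldh9a1 (higher), and they overlap for Aldh1a3 and Aldh1b1.

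Among the retinal-oxidising group, Aldh1a1, a cytosolic retinaldehyde dehydrogenase and the isozyme most often used as a stem-cell marker, stood at 10.5, 10.3, 10.5 and 10.5 CPM in parental replicates 1 to 4. In knockout replicates 1 to 4 it was at 1.88, 2.21, 0.971 and 1.48 CPM. The parental libraries were nearly the same, and every knockout library lay far below them. Each parental library held only 204 to 229 counts of the gene, so the closeness of their values is read no further. The means were 10.4 ± 0.104 and 1.64 ± 0.536 CPM (SD, n = 4), and the fitted log2 fold change was -2.70 ± 0.16 (SE), a 6.49-fold lower level. The knockout values rest on 142 counts over the group, lowest in replicate 3. Without that library the log2 fold change was -2.49. In these bulk samples, fewer cells that express a gene and less mRNA per cell cannot be told apart.

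Aldh1a7, the rodent-specific copy of Aldh1a1, was at 3.00, 2.87, 2.66 and 3.35 CPM in parental replicates and at 0.446, 0.0942, 0.194 and 0.0927 CPM in knockout replicates. It was low everywhere and close to the counting limit in the knockout, where all 4 libraries together had 18 counts against 248 in the parental group. The ratio of parental to knockout counts per effective library size was 14.6 (95% Clopper-Pearson interval 9.04 to 25.0, counting error only), and the fitted log2 fold change was -3.83 ± 0.31 (SE). Replicate 1 held 9 of the 18 knockout counts, without which the fitted value was -4.43. Aldh1a7 passed the count filter only through the parental libraries, where it was high, so a difference between the lines was built into its being fitted. The overlapping antisense transcript of Aldh1a1, C730002L08Rik, named because of its position, had at most 6 counts in any library.

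Aldh1a3, the other retinaldehyde dehydrogenase of the set and the main ALDH of several epithelial tumours, was low in both lines. It was at 1.42 ± 0.458 CPM in parental and 1.26 ± 0.199 CPM in knockout libraries (SD, n = 4). Each parental library held 21 to 40 counts and each knockout library 22 to 33. Single values were 1.29, 0.973, 1.38 and 2.06 CPM in parental replicates 1 to 4 and 1.09, 1.13, 1.28 and 1.53 CPM in the knockout ones. The groups overlapped fully. The log2 fold change of -0.16 ± 0.25 (SE) was smaller than its error and became 0.06 without parental replicate 4. Aldh1a2, the remaining retinaldehyde dehydrogenase, had 0 counts in all 8 libraries. Aldh1a1 was thus the most highly expressed of these genes in the parental line, at 2.12 ± 0.0212 CPM per kb of annotated exons (SD, n = 4) against 0.308 ± 0.0992 for Aldh1a3. In the knockout their per-length levels overlapped, at 0.332 ± 0.109 and 0.272 ± 0.0431 CPM per kb.

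In the mitochondria, Aldh2 clears acetaldehyde and lipid-derived aldehydes such as 4-hydroxynonenal. It had 753, 757, 692 and 742 CPM in parental replicates 1 to 4 and 429.7, 382, 339.8 and 365 CPM in knockout replicates 1 to 4. All knockout libraries lay well below all parental ones, with the highest knockout value in replicate 1. The means were 736 ± 30.2 and 379 ± 37.8 CPM (SD, n = 4), with a log2 fold change of -0.96 ± 0.06 (SE), so that 51.5% of the parental level remained. Aldh2 (ENSMUSG00000029455.15) lies on the minus strand of chromosome 5, from 121704090 to 121731887. Its closest relative Aldh1b1, a mitochondrial enzyme that also acts on acetaldehyde, had 7 counts in the parental and 15 in the knockout group, too few to be fitted. The knockout-to-parental ratio was 2.02 with a counting interval of 0.777 to 5.87, so a difference was not detectable at this depth.

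The cytosolic detoxifying enzyme ALDH3A1 oxidises aromatic and medium-chain aldehydes, is known as a crystallin of the cornea, and is a classical gene of the aryl hydrocarbon receptor battery. Its mRNA was at 525, 530.1, 479 and 502 CPM in parental replicates 1 to 4. In knockout replicates 1 to 4 it was at 42.5, 47.8, 44.0 and 42.3 CPM. The 2 groups were separated by about an order of magnitude with little spread inside either. The means were 509 ± 23.4 and 44.1 ± 2.54 CPM (SD, n = 4), and the log2 fold change was -3.53 ± 0.06 (SE), an 11.5-fold lower level resting on 42655 and 3917 counts. Its neighbour Aldh3a2 encodes fatty aldehyde dehydrogenase, an enzyme of the endoplasmic reticulum and peroxisomes that is deficient in Sjögren-Larsson syndrome. It was at 75.0, 75.0, 70.4 and 73.6 CPM in parental and at 65.0, 65.7, 61.3 and 63.6 CPM in knockout replicates. The groups did not overlap, but the shift was small, with a log2 fold change of -0.20 ± 0.05 (SE). These 2 genes lie tail to tail on chromosome 11, Aldh3a1 (ENSMUSG00000019102.11) on the plus strand from 61098363 to 61109247 and Aldh3a2 (ENSMUSG00000010025.20) on the minus strand from 61114243 to 61158290, with a gap of 4995 bp. In none of the 51-base words of either gene was there a match to another annotated gene (0% shared). Per length, Aldh3a1 stood 19.7 to 20.4 times above Aldh3a2 in parental and 1.89 to 2.10 times above it in knockout libraries.

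Aldh3b1, which acts on aldehydes from oxidised membrane lipids, was at 46.5, 46.0, 37.7 and 42.3 CPM in parental and at 30.0, 27.8, 29.7 and 27.9 CPM in knockout replicates. Parental replicate 3 was the lowest of its group and still above every knockout library. The log2 fold change was -0.58 ± 0.07 (SE). Aldh3b1 (ENSMUSG00000024885.10) lies on the minus strand of chromosome 19 from 3963491 to 3979808, in a small cluster with Aldh3b3 and Aldh3b2, and 8.67% of its 51-base words occurred in those copies. Both copies were almost silent, with 8 parental and 4 knockout counts for Aldh3b3 and 28 and 16 for Aldh3b2.

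The members that were higher in the knockout act in amino acid, choline and carnitine metabolism. Aldh9a1, which oxidises 4-trimethylaminobutyraldehyde on the way to carnitine, was at 79.1, 81.5, 79.2 and 80.4 CPM in parental replicates. In knockout replicates 1 to 4 it was at 123, 112, 102 and 109 CPM. The parental values were tightly grouped, and all knockout values lay above them with a wider spread. The means were 80.1 ± 1.13 and 111 ± 8.77 CPM (SD, n = 4) and the log2 fold change was 0.48 ± 0.06 (SE). Aldh9a1 (ENSMUSG00000026687.15) spans 167177560 to 167196101 on the plus strand of chromosome 1.

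Aldh7a1, or antiquitin, oxidises the semialdehyde of lysine breakdown and also betaine aldehyde. It was at 30.8, 31.6, 31.5 and 33.4 CPM in parental and 44.2, 45.8, 41.1 and 45.0 CPM in knockout replicates, again without overlap, with a log2 fold change of 0.47 ± 0.06 (SE). The gene (ENSMUSG00000053644.14, minus strand of chromosome 18 from 56642759 to 56706023) overlaps Phax on the other strand by 10509 bp, and 6.29% of its 51-base words matched Phax or the neighbouring AC162035.3. Phax had 681 to 993 counts per library, 3457 in the parental and 3181 in the knockout group. As the sources used here do not give the strand setting of the counting, reads of both genes may have been mixed, and the part of this in the value of Aldh7a1 was not tested.

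**Figure D2:**
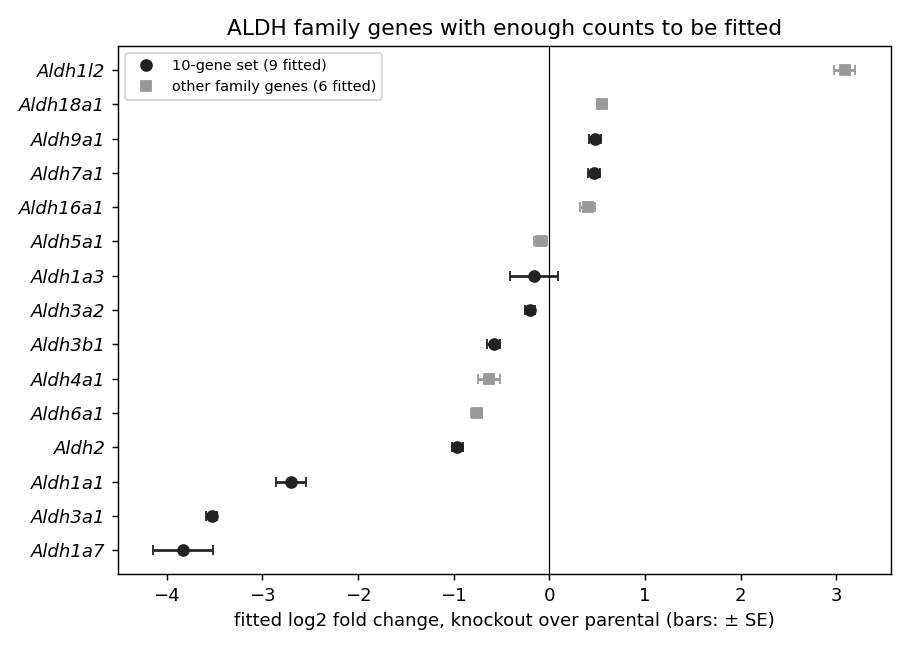
Fitted log2 fold change, knockout over parental (horizontal axis), of the 15 family genes with enough counts to be fitted; bars are ± 1 SE. Black circles are 9 of the 10 genes described and grey squares 6 other family genes. Aldh1a7, Aldh3a1 and Aldh1a1 lie furthest to the left and Aldh1l2 furthest to the right.

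The rest of the family, taken as a list of 11 genes, moved in both directions. Among 6 fitted genes there were 3 that rose, 2 that fell and 1 that passed in neither direction, and their median log2 fold change was 0.16. Among all tested genes 34.4% rose and 33.6% fell, 68% together, so these counts are read no further. Aldh1l2, the mitochondrial 10-formyltetrahydrofolate dehydrogenase of folate metabolism, rose from 5.37 ± 0.693 to 45.6 ± 6.69 CPM (SD, n = 4), a log2 fold change of 3.09 ± 0.11 (SE; edgeR adjusted p = 3.5e-16). Aldh18a1, the first enzyme of proline synthesis from glutamate, rose by 0.55 ± 0.05 (SE) on the log2 scale (edgeR adjusted p = 2.07e-09). Aldh16a1 rose by 0.40 ± 0.08 (SE; edgeR adjusted p = 6.3e-05). Aldh6a1, of valine breakdown, and Aldh4a1, of proline breakdown, fell by 0.76 ± 0.06 and 0.63 ± 0.11 on the log2 scale (SE; edgeR adjusted p = 1.32e-10 and 3.25e-05). Aldh5a1, of GABA breakdown, had a log2 fold change of -0.09 ± 0.07 (SE; edgeR adjusted p = 0.289). Of the 5 genes not fitted, Aldh1l1, the cytosolic counterpart of Aldh1l2, had 13 counts in the parental and 3 in the knockout group (ratio 4.59, counting interval 1.26 to 25.1), and the others were Aldh1a2, Aldh3b2, Aldh3b3 and Aldh8a1.

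The order of the family by level per length changed between the lines. In the parental line Aldh3a1 led with 262 ± 12.1 CPM per kb (SD, n = 4), followed by Aldh2 with 144 ± 5.90, Aldh18a1 with 36.5 ± 1.16, Aldh9a1 with 23.7 ± 0.335, Aldh3b1 with 21.1 ± 1.99 and Aldh3a2 with 13.1 ± 0.387. The ranges of these 6 genes did not overlap. In the knockout line Aldh2 led with 74.0 ± 7.38 CPM per kb, followed by Aldh18a1 with 53.3 ± 1.66 and Aldh9a1 with 32.9 ± 2.59, and Aldh3a1 came after these with 22.7 ± 1.31. Lower in the knockout order, Aldh1l2, at 5.14 to 7.19 CPM per kb, overlapped both Aldh6a1, at 5.29 to 5.67, and Aldh16a1, at 4.86 to 5.27, and Aldh1a1, at 0.197 to 0.449, overlapped both Aldh1a3 and Aldh1a7. In the parental order, the ranges of Aldh5a1 and Aldh16a1 overlapped, as did those of Aldh1a1 and Aldh4a1. Aldh3a1 made up 49.4% ± 0.523 of the summed per-length level of all 21 genes in parental and 9.50% ± 0.657 in knockout libraries (SD, n = 4). The share of Aldh2 was 27.1% ± 0.15 and 30.8% ± 1.88. The summed level of the family was 530.4 ± 21.4 CPM per kb in the parental and 239.8 ± 10.0 in the knockout line.

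**Figure D3:**
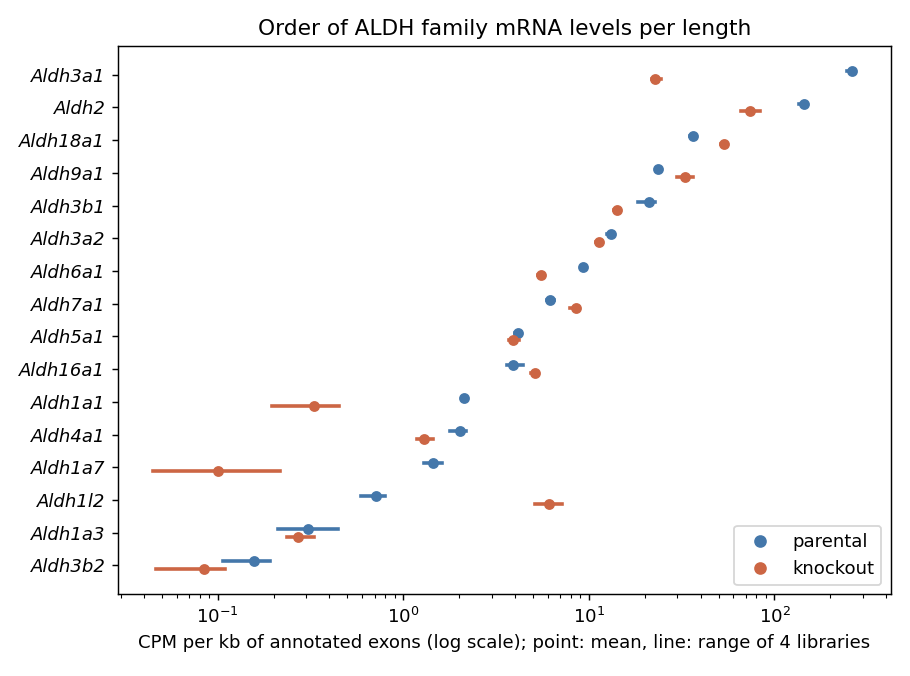
Level per kb of annotated exons (horizontal axis, log scale) of the 16 family genes with at least 1 count in every library, ordered by the parental mean; points are means and lines the range of 4 libraries, blue for parental and red for knockout. Aldh3a1 moves from the top place to below Aldh2, Aldh18a1 and Aldh9a1 in the knockout, and Aldh1l2 moves up.

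Genes that supply retinal to the ALDH1A enzymes or act on its product moved both ways. The counts in this and the following lists stand beside 34.4% of all tested genes that rose and 33.6% that fell, 68% together, and no list was tested against other genes. Of 15 fitted genes for retinol and retinal handling, 8 rose and 4 fell, while 3 passed neither way (median log2 fold change 0.24). These counts are read no further. Rdh10, the main retinol dehydrogenase that makes retinal, fell from 226 ± 5.42 to 43.4 ± 2.71 CPM (SD, n = 4; edgeR adjusted p = 1.21e-19). Dhrs3, which turns retinal back into retinol, fell by 1.91 ± 0.16 on the log2 scale (SE; edgeR adjusted p = 2.83e-10). The intracellular retinol carrier Rbp2 rose from a low level, with a log2 fold change of 2.30 ± 0.12 (SE; edgeR adjusted p = 2.31e-13). Of 10 fitted retinoic acid receptors and targets, 3 rose, 3 fell and 4 did not pass (median 0.06). Without parental replicate 4, 5 rose, and with library size as the only scaling 5 fell. Crabp2, which fell and is on both lists, met the cutoff of the count filter in 4 parental libraries but in only 1 knockout library. The receptors Rxra and Rara rose by 1.08 ± 0.08 and 0.50 ± 0.05 (SE; edgeR adjusted p = 2.62e-11 and 3.07e-08), while Tgm2, a transglutaminase induced by retinoic acid, fell by 0.38 ± 0.06 (edgeR adjusted p = 3.16e-06).

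Among the other enzymes that make or remove aldehydes, more genes fell than rose, which was not tested against the 33.6% and 34.4% of all tested genes. Of 23 fitted alcohol dehydrogenases, aldo-keto and carbonyl reductases and aldehyde oxidases, 14 fell, 5 rose and 4 did not pass (median -0.37). Scaled by library size alone, or with no filter on low counts, 3 rose. Akr1c12, an aldo-keto reductase, fell from 24.1 ± 1.08 to 7.05 ± 0.474 CPM (SD, n = 4; edgeR adjusted p = 4.25e-14). Its relative Akr1c14 had 261 counts in the parental and 2 in the knockout group, which gives a ratio of 138 (95% counting interval 37.9 to 1147). Members of this gene cluster resemble each other, so their counts may be split between them. Among the 14 and 5 genes, Akr1c14, Akr1c19 and Cbr3 met the count filter through the parental libraries only and Xdh through the knockout libraries only, so for these 4 a difference was built into their being fitted. Xdh, xanthine dehydrogenase, was at 0.194 ± 0.0977 CPM in parental and 4.81 ± 0.585 CPM in knockout libraries (SD, n = 4). No p-value is given for it for that reason. Cbr4, a carbonyl reductase, rose by 0.70 ± 0.09 on the log2 scale (SE, edgeR adjusted p = 2.07e-07). Of 8 fitted amine oxidases, which release aldehydes from amines, 7 fell and 1 rose (median -0.72); Maob, among the 7, met the filter through the parental libraries only. The polyamine oxidase gene Paox fell by 1.01 ± 0.07 and the monoamine oxidase gene Maoa by 0.69 ± 0.06 on the log2 scale (SE; edgeR adjusted p = 4.09e-11 and 9.73e-10). Smox, spermine oxidase, which yields an aminoaldehyde, rose from 218 ± 5.86 to 555 ± 71.5 CPM (edgeR adjusted p = 1.5e-13).

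The lists of routes that feed ALDH3A2, ALDH7A1 and ALDH9A1 held few genes. Of 12 fitted genes for fatty aldehydes and sphingolipids, 4 fell, 1 rose and 7 did not pass (median -0.10), and 7 fell when scaled by library size alone. Sphk1, a sphingosine kinase whose product is cleaved to a fatty aldehyde, fell by 1.56 ± 0.10 on the log2 scale, and the ceramidase gene Acer3 by 0.52 ± 0.05 (SE; edgeR adjusted p = 4.33e-12 and 1.7e-08). Peds1, which introduces the vinyl ether bond of plasmalogens, rose by 0.59 ± 0.07 (SE; edgeR adjusted p = 3.23e-07). For lysine, choline and carnitine routes, only 4 of 13 genes were counted well enough to be fitted, of which 3 fell and 1 rose (median -0.58). Sardh, sarcosine dehydrogenase, fell by 2.55 ± 0.18, Phykpl, of hydroxylysine breakdown, fell by 0.59 ± 0.07, and Dhtkd1, of lysine breakdown, rose by 0.56 ± 0.14 on the log2 scale (SE; edgeR adjusted p = 3.34e-11, 2.72e-07 and 0.000923).

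Aldh3a1 is often listed with genes of the aryl hydrocarbon receptor (AhR) and of NRF2, the transcription factor of the antioxidant response. Of 8 fitted genes of the AhR battery, 4 fell, 2 rose and 2 did not pass (median -0.51). Cyp1b1, a cytochrome P450 induced by AhR ligands, fell from 6.74 ± 0.173 to 0.442 ± 0.118 CPM (SD, n = 4). Tiparp, another AhR target, rose instead, from 79.0 ± 4.50 to 334 ± 51.1 CPM (edgeR adjusted p = 1.94e-11). Cyp1b1 met the cutoff of the count filter in 4 parental libraries but in only 1 knockout library, and Nqo1 in 4 and 3. A difference was thus partly built into the fitting of Cyp1b1. No p-value is given for either gene. The AhR partner gene Arnt rose by 0.59 ± 0.06 on the log2 scale (SE; edgeR adjusted p = 2.81e-08). Of 15 fitted genes of the NRF2 list, 9 fell, 3 rose and 3 did not pass (median -0.31), with 6 falls of at least 2-fold. Nqo1, a quinone reductase on both lists, fell from 18.5 ± 0.957 to 0.587 ± 0.147 CPM. Gclc, of glutathione synthesis, fell from 370.2 ± 23.7 to 52.0 ± 1.97 CPM (edgeR adjusted p = 1.12e-20). Osgin1 and Hmox1, heme oxygenase, went the other way, with log2 fold changes of 0.67 ± 0.06 and 0.58 ± 0.06 (SE; edgeR adjusted p = 3.11e-09 and 3.77e-08). Among all tested genes, 9.41% passed and were at least 2-fold lower.

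Surface and transcription factor genes often scored beside ALDH activity as stem-like markers showed no common direction. Of 8 fitted, 4 rose and 4 fell, and Sox2, Kit and Pou5f1 had 0 counts. Itga6, an integrin, and Klf4, a transcription factor, rose by 0.61 ± 0.06 and 0.49 ± 0.05 on the log2 scale (SE; edgeR adjusted p = 3.38e-09 and 3.28e-08). Myc fell from 1007 ± 17.4 to 355 ± 12.3 CPM (SD, n = 4), and Cd24a, a surface glycoprotein gene, from 221 ± 7.85 to 123 ± 6.06 CPM (edgeR adjusted p = 1.35e-16 and 3.03e-12).

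**Figure D4:**
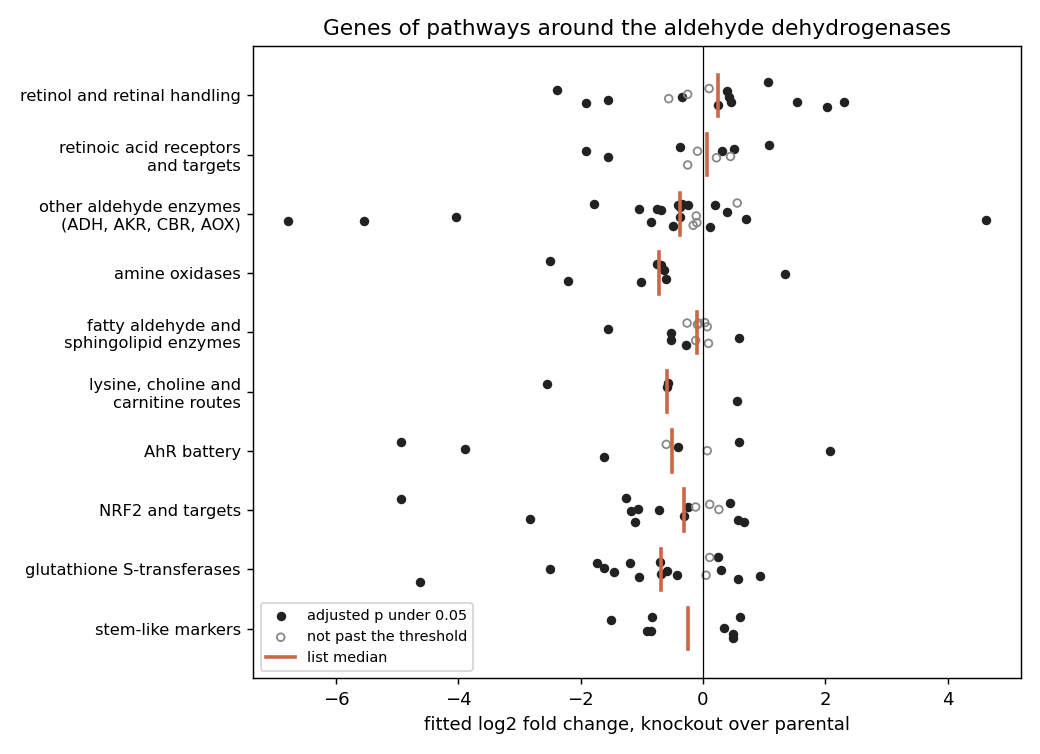
Fitted log2 fold change, knockout over parental (horizontal axis), of each fitted gene in 10 lists of genes around the aldehyde dehydrogenases; filled points passed an adjusted p under 0.05, open points did not, vertical position within a row is only for legibility, and red bars are list medians. Medians run from -0.72 for amine oxidases to 0.24 for retinol and retinal handling.

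Markers of other cell types also differed between the lines, and their part in the values above was not tested. The 6 alveolar type 1 markers summed to 105 to 109 CPM in parental and 41.3 to 45.9 CPM in knockout libraries, mostly from Aqp5, with Hopx at 0. The 6 leukocyte markers summed to 46.4 to 53.0 and 13.1 to 25.7 CPM, nearly all of it from Cd68, while Ptprc and Itgam had 1 count each in all libraries. The 7 fibroblast markers summed to 3.92 to 5.72 and 2.03 to 3.07 CPM, with Col1a2 and Lum at 0. The 5 endothelial markers summed to 1.93 to 3.66 and 3.53 to 5.00 CPM, with Kdr at 0, the 5 basal markers to 1.42 to 1.91 and 2.59 to 4.04 CPM, and the 4 ciliated markers to 0.333 to 1.01 and 0.0496 to 0.463 CPM.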

How the data were processed

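The values used are raw counts of 56884 genes in 8 libraries as the authors deposited them, and, for 1 alternative, their deposited log2 table (voom's log2 CPM) of 15726 genes. A stranded mRNA kit was used on 100 ng of RNA, with paired 51 bp reads, per the labels' protocols. The build GRCm39, limma, edgeR, featureCounts 1.6.0, STAR 2.7.9a and FastQC 0.11.8 are listed without roles, per the submitters' processing notes. The counting's strand and multiple-match settings are not stated there.

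Samples were grouped and numbered by their labels, and all were used. The model was edgeR 4.0.16's quasi-likelihood test (glmQLFit, robust; TMM; filterByExpr) on the counts with genotype as the only term, adjusted by Benjamini-Hochberg over 13707 genes. "Rose" and "fell" are used for genes with an adjusted p under 0.05. SE is the absolute log2 fold change over the square root of F. Ratios of counts have exact 95% (Clopper-Pearson) intervals. CPM per kb uses merged exons of GENCODE M21 (GRCm38), which may differ from the counted annotation. Shared sequence was counted as 51-base words over M21 transcripts, both strands, and coding sequences were aligned with Biopython 1.88. Promoters are RefSeq's (GRCm38.p6).

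The members and lists were chosen with earlier results of these data known. Named genes are the members, the other family genes, Stk11, and per list, at most 2 that rose and 2 that fell, by smallest adjusted p; marker genes are named mainly where they were at 0, and Nkx2-1, Abca3, Aqp5, Cd68, Ptprc, Itgam, C730002L08Rik, Phax, AC162035.3, Sox2, Kit and Pou5f1 after their values or positions were seen. Akr1c19, Cbr3, Crabp2, Maob, Gsta2 and Gstp2 are named for how they met the filter (10 counts at the median library size in 4 libraries). Some genes of these lists are not reported here. Alternatives were other scalings and filters, DESeq2 1.42.0, limma 3.58.1 (voom on the counts, and on the deposited values), the replicate number as a block, and leaving out each library. The fits were tested on simulated data with a fixed spread and far fewer changed genes than were called here. That test therefore does not cover data with so many changes. Software was Python 3.11.15 (scipy 1.17.1, pandas 2.3.3, numpy 2.4.6, matplotlib 3.10.9) and R 4.3.3.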

Additional observations from a re-analysis of the deposited data

Results flagged for a closer look

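In parental libraries Aldh1a1 was lowest in replicate 2, at 10.3 CPM, while the other 3 lay together at 10.5 CPM, so that most of the group's narrow range came from 1 library. It was the only 1 of 36 groups of 4 values checked that stood apart in this way, where chance alone sets apart about 5%. Replicate 2 held 222 counts of Aldh1a1, inside the parental range of 204 to 229, so nothing is read from this small gap.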

How the results depend on the processing

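Under all 17 alternatives, 2 members were higher and 6 lower past the threshold, and all 153 refitted member values kept their side of it. The log2 fold change ran from -3.61 to -3.50 for Aldh3a1, from -2.88 to -2.49 for Aldh1a1, from -4.43 to -3.60 for Aldh1a7 and from -1.04 to -0.91 for Aldh2; that of Aldh1a3 ran from -0.31 to 0.06. Of all tested genes, 4721 were higher and 4601 lower, and 3921 and 5280 when scaled by library size alone, which shifted the median by -0.08. That scaling also gave 5 falls in place of 3 for retinoic acid receptors and targets, 3 rises in place of 5 for the other aldehyde enzymes, 7 falls in place of 4 for fatty aldehydes and sphingolipids, and an adjusted p of 0.045 for Aldh5a1 (edgeR; log2 fold change -0.17). With no low-count filter 3 of the other aldehyde enzymes rose. Leaving out 1 library at a time gave 3 to 5 rises among retinoic acid receptors and targets, the 5 without parental replicate 4. The causes were not tested. With the replicate number as a block, 4633 genes were higher and 4549 lower, and 2 members higher and 6 lower. No common deviation was seen between libraries with the same number (correlations of -0.121 to 0.0352 across genes). Of 8 libraries, 1 correlated best with its own number. This check could miss a weak shared batch, and whether the numbers mark one was not tested. Depth limits Aldh1b1, Aldh1a3 and the knockout values of Aldh1a7.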

Other observations

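Glutathione S-transferases conjugate reactive aldehydes to glutathione as an alternative to their oxidation. Of 17 fitted genes, 11 fell and 4 rose, while 2 passed neither way. Among all tested genes 33.6% fell and 34.4% rose, 68% together, and the list was not tested against them. Their median log2 fold change was -0.68, and 7 fell at least 2-fold, where 9.41% of all tested genes passed and fell that far. Gsta4, the isozyme known for 4-hydroxynonenal, fell from 417 ± 13.6 to 126 ± 5.36 CPM (SD, n = 4), and Gstm1 from 196 ± 7.77 to 34.6 ± 2.60 CPM (edgeR adjusted p = 1.07e-17 and 1.69e-19). Gstp3 and Mgst1 rose by 0.94 ± 0.15 and 0.29 ± 0.06 on the log2 scale (SE; edgeR adjusted p = 5.86e-06 and 0.000288). Gsta2 and Gstp2, among the 11, each met the cutoff of the count filter in 4 parental libraries, and in 3 and 2 knockout libraries. Several of these genes lie in families of similar copies, between which the counts may be split.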
